A study of Mus musculus with 14 samples.

Results

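The interferon-stimulated genes described here are 56 genes of 16879 with a named probe on the array, measured in 12 mammary tumours of Brg1+/- mice. They were chosen by name: every gene whose symbol starts with Oas, Gbp, Ifit plus a number or Irf plus a number, and 28 listed genes, some of which the prefixes also cover. Ifi27 and Ifi44 of that list had no probe used here, and the literal prefix also takes in Irf2bp2 and Irf2bpl, which encode proteins that bind IRF2 rather than interferon regulatory factors. All 56 genes had enough values to be tested, and 57 probes measured them, since Parp14 alone had more than 1 probe. For the comparison of the interferon classes, 36 genes were assigned to the targets of type I interferon, 14 to the targets of type II interferon, and the other 6 were IRF genes of neither class.

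The series holds 14 two-colour arrays, each with tumour RNA in Cy5 against a common mouse reference RNA in Cy3. The 12 tumours are T135, T160, T172, T176, T2023, T2134, T221, T284, T372, T55, T646 and T920, and T172 and T284 each have a second array marked biorep. All tumours carried Brg1 in the heterozygous state, so no wild-type tumour, treatment or normal tissue was compared, and the comparisons were those between tumours. Brg1, the product of Smarca4, is an ATPase that drives SWI/SNF chromatin remodelling. The sources used here give no strain, age or treatment, leave the prefix MIXED of every label unexplained, and do not tell if any of the tumours shared an animal. Values below are log2 ratios, tumour to reference, with base and direction inferred. A difference of 1 on this scale is a doubling, if that reading is right. Each array held 22501 to 22566 values of 22575 probes, with array medians between 0 and 0.018.

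Interferons are secreted proteins by which cells warn their surroundings of infection or damage. Type I interferons (alpha and beta) signal through the receptor chains Ifnar1 and Ifnar2 and the kinases Jak1 and Tyk2 to a complex with Stat2 and Irf9, which binds the interferon-stimulated response element (ISRE) in promoters. Type II interferon (gamma), made mainly by T and NK cells, signals through Ifngr1 and Ifngr2, acts on promoters through the gamma-activated site (GAS) and induces Irf1 and the GTPases of cell-autonomous immunity. Many genes respond to both, so the division into type I and type II targets follows the stronger known inducer and is approximate. In tumours, both cancer cells and infiltrating leukocytes can express these genes, and in bulk RNA fewer cells of a type and less RNA per cell cannot be told apart.

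The promoters of the 2 type I and 2 type II targets that varied most among those with a usable RefSeq promoter are shown because they carry, or lack, the response elements known for these genes. The windows run from 250 bases before to 50 bases after the annotated start in GRCm38.p6, all on the plus strand. Capitals mark matches to the ISRE core GAAANNGAAA on either strand (TTTCNNTTTC on the other) and to the GAS motif TTCNNNGAA, which reads the same on both strands. The Ifit1 window is chr19:34640639-34640938, that of Oas1f chr5:120847117-120847416, that of Igtp chr11:58199306-58199605 and that of Gbp3 chr3:142559794-142560093.
Ifit1: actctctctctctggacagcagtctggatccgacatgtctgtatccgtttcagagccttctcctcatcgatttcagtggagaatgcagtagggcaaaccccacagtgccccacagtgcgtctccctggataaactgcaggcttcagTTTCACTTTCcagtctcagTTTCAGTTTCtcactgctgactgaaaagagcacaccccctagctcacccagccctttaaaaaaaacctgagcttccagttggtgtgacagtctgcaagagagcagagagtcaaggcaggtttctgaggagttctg
Oas1f: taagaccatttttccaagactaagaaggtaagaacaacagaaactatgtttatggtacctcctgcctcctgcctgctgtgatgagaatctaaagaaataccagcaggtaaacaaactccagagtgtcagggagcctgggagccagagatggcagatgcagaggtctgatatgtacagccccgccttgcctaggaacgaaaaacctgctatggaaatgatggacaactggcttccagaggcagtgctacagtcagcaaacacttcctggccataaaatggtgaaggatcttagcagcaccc
Igtp: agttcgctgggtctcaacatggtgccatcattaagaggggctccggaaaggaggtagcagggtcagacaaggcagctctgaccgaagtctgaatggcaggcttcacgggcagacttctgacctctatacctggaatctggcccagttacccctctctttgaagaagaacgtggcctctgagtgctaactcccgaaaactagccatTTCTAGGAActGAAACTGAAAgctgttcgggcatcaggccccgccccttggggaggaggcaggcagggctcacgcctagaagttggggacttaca
Gbp3: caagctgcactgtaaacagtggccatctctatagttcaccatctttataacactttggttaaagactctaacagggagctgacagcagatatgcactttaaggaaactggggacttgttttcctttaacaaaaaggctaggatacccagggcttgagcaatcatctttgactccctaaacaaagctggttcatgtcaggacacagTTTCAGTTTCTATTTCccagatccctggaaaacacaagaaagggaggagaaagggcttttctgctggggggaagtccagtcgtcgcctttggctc

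Ifit1 held 2 ISRE cores, which begin 104 and 85 bases before the start. Igtp held a GAS match 45 bases before the start and an ISRE core 34 bases before it, and Gbp3 held 2 overlapping ISRE cores at 45 and 39 bases. The Oas1f window held neither motif, and neither did a second window of Gbp3, chr3:142560106-142560405. In the counts below, a gene held a motif if any of its windows did, among all genes as well. Of the 42 genes of the group with a promoter in the table, 21 (50%) held an ISRE core, against 3.99% of 27025 genes in the table. By class, the share was 13 of 26 type I targets (50%) and 7 of 10 type II targets (70%). GAS matches were found in 12 of the 42 (28.6%), against 9.55% of all genes, with 6 of 26 type I targets (23.1%) and 5 of 10 type II targets (50%). Among the genes that differed between tumours by the F-test described next, 14 of 24 held an ISRE core, against 7 of 18 of those that did not pass. Within the type I targets the share was 50% on both sides, 7 of 14 called and 6 of 12 not called. The pooled counts mix the classes, since 9 of the 10 type II targets with a promoter were called. Over all called genes on the array the share was 4.79%. These counts describe letters in a window and say nothing of binding. Neighbouring family members share ancestry and partly sequence, so they are not independent examples.

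Over the 12 tumours, 34 of the 56 interferon-stimulated genes differed between tumours at an adjusted p under 0.05 (limma's moderated F-test), against 18.3% of the 16877 genes tested. The called genes made up 20 of the 36 type I targets, 13 of the 14 type II targets and 1 of the 6 other IRF genes. The median SD over tumours was 0.77 over the 56 genes and 0.39 over all genes. An SD of at least 1 was reached by 19 genes of the group (33.9%), against 7.93% of all genes. By role, the count was 2 of 4 in the ISG15 system, 7 of 11 antiviral effectors, 9 of 17 nucleic acid sensors and RNA enzymes, 12 of 12 interferon-gamma-inducible GTPases and 4 of 12 transcriptional regulators. The error of this test comes from T172 and T284, the tumours with a repeat array. T176 stood apart in its epithelial markers, whose mean lay at -5.01 from the 12-tumour mean, and without T176 the test called 31 of the 56 genes, against 14.9% of all genes. What was repeated for T172 and T284 is not stated, so the error behind the p-values, the spread between repeat arrays, may be technical.

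**Figure D1:**
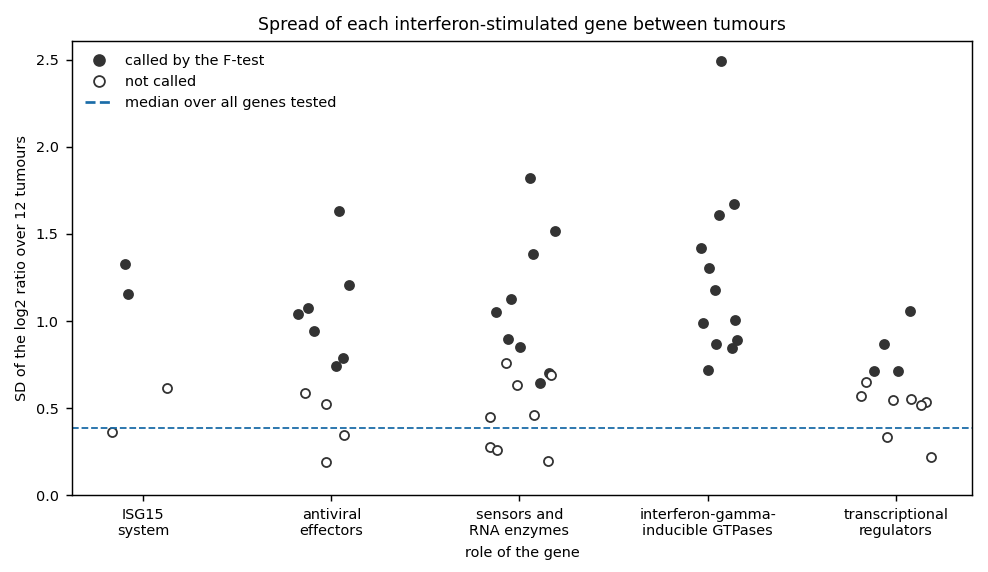
Each point is 1 gene, placed by its SD of the log2 ratio over 12 tumours (vertical axis) within its role (horizontal axis); filled points were called by the F-test, open points were not, and the dashed line is the median SD of all genes, 0.39. All 12 GTPases are filled and lie above the line, from 0.72 to 2.49, while 4 of 12 transcriptional regulators are filled.

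In the ISG15 system, the ubiquitin-like modifier and its protease moved between tumours and the ligases did not pass the test. Usp18 had log2 ratios of -0.89 in T176, -0.04 in T2023, 0.26 in T646, 0.99 in T135, 1.30 in T172, 1.57 in T221, 2.20 in T372, 2.34 in T160, 2.38 in T2134, 2.46 in T55, 2.88 in T284 and 3.71 in T920. Usp18 removes ISG15 from proteins and restrains the type I receptor. It lay lowest in T176 and T2023 and highest in T920, and its adjusted p was 0.0027. Isg15 had log2 ratios of -0.14 in T176, 0.42 in T172, 0.43 in T2023, 0.60 in T646, 1.64 in T221, 1.78 in T135, 1.82 in T160, 2.01 in T2134, 2.12 in T284, 2.71 in T372, 2.83 in T55 and 3.76 in T920. Isg15, the modifier itself, had an adjusted p of 0.00348 and shared both ends of the order with Usp18, T176 and T920. Herc6, the main ISG15 ligase in mice, and Trim25, a ubiquitin ligase that acts on RIG-I, had SDs of 0.37 and 0.62 and adjusted p-values of 0.433 and 0.396. Both were also highest in T920, at 1.09 and 2.44.

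Among the antiviral effectors, Ifit1, which binds foreign RNA and blocks its translation, spread most. Ifit1 had log2 ratios of -1.83 in T176, -1.62 in T2023, -0.99 in T646, 0.72 in T135, 0.80 in T172, 0.87 in T221, 1.38 in T160, 1.74 in T372, 2.19 in T284, 2.34 in T2134, 2.51 in T55 and 3.04 in T920. It lay below the reference in T176, T2023 and T646 and above it in the other 9 tumours (adjusted p = 0.000486). Mx2 had log2 ratios of 0.45 in T176, 0.85 in T2023, 1.20 in T646, 1.65 in T172, 1.86 in T135, 2.40 in T221, 2.59 in T372, 2.74 in T160, 3.05 in T55, 3.62 in T2134, 3.65 in T284 and 4.39 in T920. Mx2, a dynamin-like GTPase that restricts viruses, was above the reference throughout and passed the F-test (adjusted p = 0.00228). Its log2 ratios correlated with those of Ifit1 at 0.95 over the 12 tumours, which is a description. Bst2 had log2 ratios of -0.45 in T2023, -0.08 in T172, 0.49 in T176, 0.51 in T646, 0.87 in T221, 1.01 in T135, 1.49 in T160, 2.09 in T284, 2.19 in T372, 2.29 in T55, 2.52 in T920 and 2.80 in T2134. Bst2, or tetherin, holds budding virus particles at the cell surface, and here T2134 rather than T920 was highest (adjusted p = 0.00575). Ifit3 had log2 ratios of -1.26 in T2023, -0.67 in T176, -0.48 in T135, 0.08 in T646, 0.65 in T172, 0.98 in T221, 1.04 in T160, 1.11 in T372, 1.64 in T55, 1.68 in T2134, 1.71 in T920 and 1.79 in T284. Ifit3, the partner of Ifit1, passed narrowly with an adjusted p of 0.0448, and 0.0663 without T176. Its first array of T172 gave 1.44 and its second -0.14, the widest gap between arrays of 1 tumour in the group.

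The other effectors that passed were Rsad2, Ifit2 and Xaf1. Rsad2, or viperin, an enzyme that makes a chain-terminating nucleotide, stood at 1.61 in T920 and 0.60 in T2134 and below 0 in the other 10 tumours (adjusted p = 0.0103). Ifit2, another RNA-binding member of the Ifit family, was 1.39 in T920 and at most 0.74 elsewhere, with no value in T2134 (adjusted p = 0.0195). Without T920, the adjusted p was 0.0618 for Rsad2 and 0.0518 for Ifit2. Xaf1, a pro-apoptotic antagonist of the inhibitor XIAP, ordered the tumours differently and was highest in T284 (2.49) and lowest in T2134 (-0.39), with 0.41 in T920. Isg20, an exonuclease, Ifi35, Mx1 and Ifit1bl2 did not pass, with SDs of 0.19 to 0.59 and adjusted p-values of 0.0548 to 0.937. Mx1 and Mx2 lie beside each other on chromosome 16, and their SDs were 0.35 and 1.21.

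**Figure D2:**
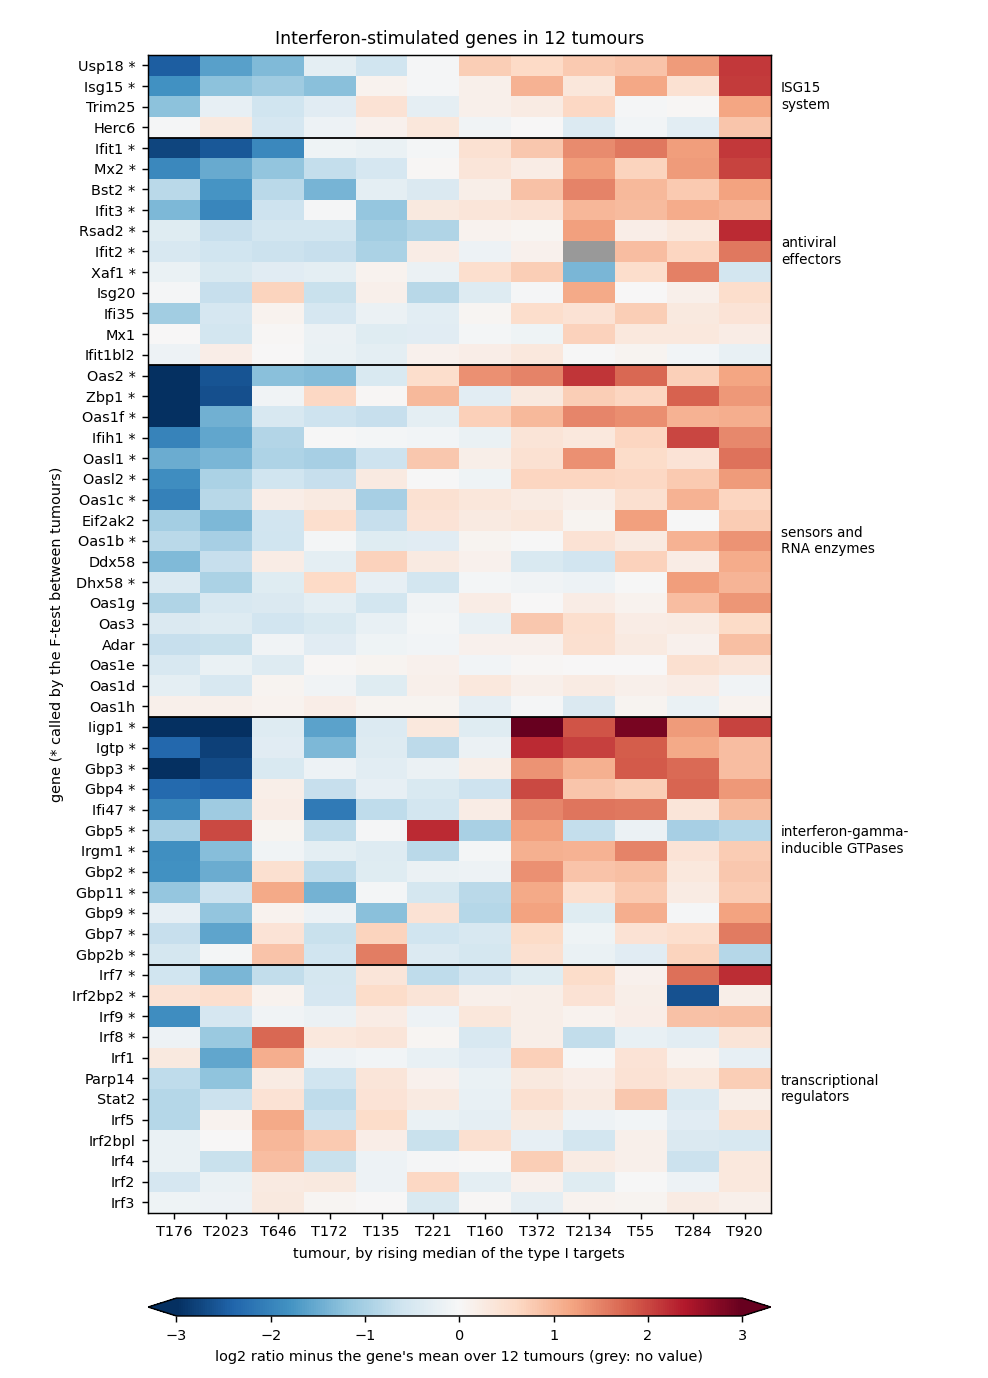
Each row is a gene, grouped by role and sorted by SD, and each column a tumour in rising order of its type I median; colour gives the difference of the log2 ratio from that gene's mean, and an asterisk marks genes called by the F-test. The top rows of the first 4 blocks are blue in T176 and T2023 and red in T284 and T920, and Irf2bp2 shows a single low value in T284.

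The nucleic acid sensors and RNA enzymes held the 11 genes of the oligoadenylate synthetase family. Active members make, on binding double-stranded RNA, the oligoadenylates that activate RNase L, while others such as Oasl1 lack that activity. Oas2 had log2 ratios of -1.17 in T176, -0.25 in T2023, 1.04 in T172, 1.09 in T646, 1.89 in T135, 2.87 in T221, 3.05 in T284, 3.53 in T920, 3.71 in T160, 3.83 in T372, 4.08 in T55 and 4.49 in T2134. Oas2 was low in the same pair of tumours and highest in T2134 (adjusted p = 0.000427). Zbp1 had log2 ratios of -0.51 in T176, 0.16 in T2023, 2.48 in T160, 2.71 in T646, 2.83 in T135, 3.10 in T372, 3.44 in T172, 3.44 in T55, 3.54 in T2134, 3.79 in T221, 4.11 in T920 and 4.57 in T284. Zbp1, a sensor of Z-form nucleic acids that can trigger necroptosis, had only T176 below the reference, and T284 at the top (adjusted p = 0.000372). Oas1f had log2 ratios of -1.46 in T176, 0.27 in T2023, 1.01 in T135, 1.07 in T172, 1.21 in T646, 1.39 in T221, 2.42 in T160, 2.67 in T372, 2.75 in T284, 2.78 in T920, 3.09 in T55 and 3.16 in T2134. Oas1f, the member whose promoter window held neither motif, followed Oas2 at both ends (adjusted p = 0.00185). Ifih1 had log2 ratios of -0.12 in T176, 0.32 in T2023, 1.002 in T646, 1.67 in T160, 1.80 in T221, 1.83 in T135, 1.88 in T172, 2.19 in T2134, 2.27 in T372, 2.53 in T55, 3.31 in T920 and 3.89 in T284. Ifih1, which encodes the long double-stranded RNA sensor MDA5, was highest in T284 and T920 (adjusted p = 0.00121).

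Within the Oas family on chromosome 5, 6 of 11 genes passed the test, namely Oas2, Oas1f, Oasl1, Oasl2, Oas1c and Oas1b. The median correlation over tumours between the 11 genes was 0.71 across 55 pairs that share arrays and neighbouring sequence. Oas1d, Oas1e and Oas1h had SDs of 0.26, 0.28 and 0.20, below the median of all genes, and adjusted p-values of 0.733, 0.636 and 0.917. Whether a probe of 1 family member also binds a near copy was not tested. Of the other RNA enzymes, Dhx58, which encodes the regulator LGP2, passed (adjusted p = 0.0228), with 1.54 in T284 and 1.29 in T920 as its highest values. Ddx58, which encodes RIG-I, Eif2ak2, the kinase PKR, and the RNA editing enzyme Adar did not pass, with adjusted p-values of 0.24, 0.14 and 0.2. Eif2ak2 passed when any 1 of the 4 repeat arrays of T172 and T284 was left out, with adjusted p-values of 0.0214 to 0.0384. The highest values were in T920 for Ddx58 and Adar and in T55 for Eif2ak2.

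**Figure D3:**
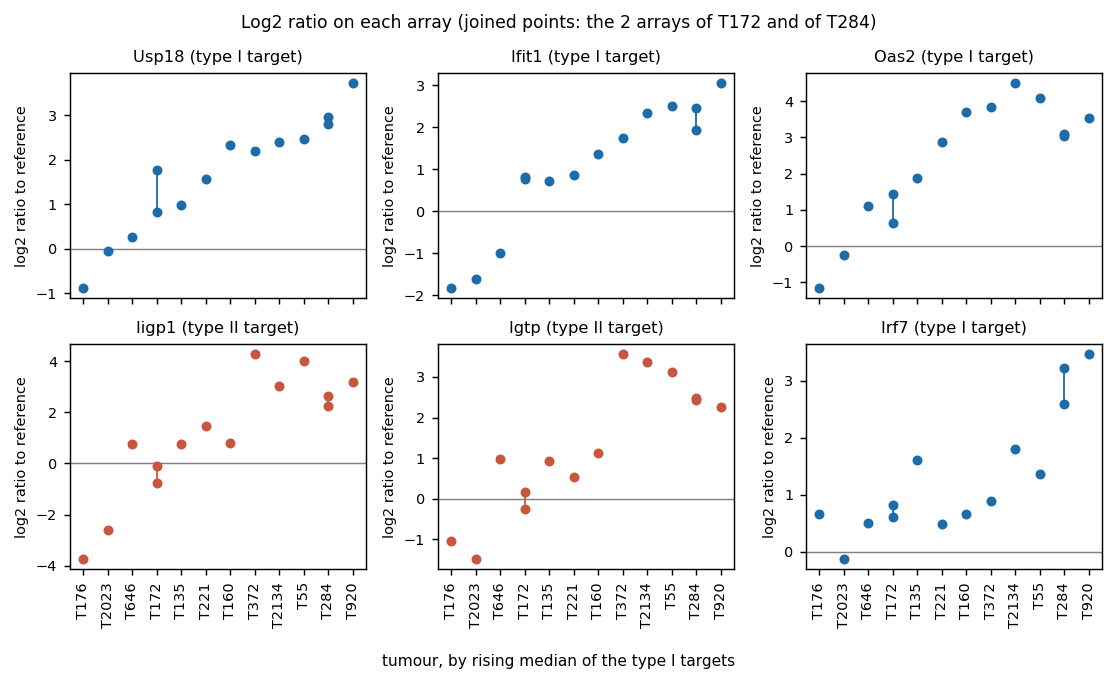
Log2 ratios to the reference (vertical axes) of 6 genes on each array, with tumours in rising order of their type I median; blue panels are type I targets and red panels type II targets, and joined points are the 2 arrays of T172 and of T284. For Iigp1 and Igtp, T176 and T2023 lie at the bottom and T372 at the top, while Usp18, Ifit1 and Irf7 end with T920.

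The interferon-gamma-inducible GTPases, which assemble on and disrupt the vacuoles of intracellular pathogens, were called as a complete set of 12. Iigp1 had log2 ratios of -3.74 in T176, -2.60 in T2023, -0.43 in T172, 0.77 in T135, 0.77 in T646, 0.81 in T160, 1.48 in T221, 2.45 in T284, 3.04 in T2134, 3.19 in T920, 4.02 in T55 and 4.26 in T372. Iigp1 had the widest spread of the group, with an SD of 2.49 and an adjusted p of 0.000109, and T176 and T2023 stood below the other 10 tumours. Igtp had log2 ratios of -1.49 in T2023, -1.03 in T176, -0.04 in T172, 0.54 in T221, 0.94 in T135, 0.99 in T646, 1.13 in T160, 2.25 in T920, 2.46 in T284, 3.13 in T55, 3.36 in T2134 and 3.56 in T372. For Igtp the adjusted p was 0.000309, and T372 and T2134 were highest. Gbp3 had log2 ratios of -1.06 in T176, -0.45 in T2023, 1.78 in T646, 1.93 in T135, 2.05 in T221, 2.07 in T172, 2.42 in T160, 3.15 in T920, 3.31 in T2134, 3.58 in T372, 3.94 in T284 and 4.06 in T55. Gbp3, a guanylate-binding protein, split the tumours in the same way at the low end (adjusted p = 0.0005). Gbp4 had log2 ratios of -1.13 in T2023, -1.06 in T176, 0.59 in T172, 0.65 in T160, 0.82 in T221, 1.02 in T135, 1.45 in T646, 2.01 in T55, 2.11 in T2134, 2.56 in T920, 3.02 in T284 and 3.24 in T372. Gbp4 lies on chromosome 5, apart from Gbp3 on chromosome 3, and T372 and T284 were highest (adjusted p = 0.00104).

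Among the other GTPases, Ifi47, Irgm1, Gbp2, Gbp11, Gbp9 and Gbp7 had adjusted p-values between 0.000878 and 0.0187 and SDs between 0.84 and 1.30. Gbp2 ran between 0.51 in T176 and 3.69 in T372 and was above the reference in all 12 tumours. Gbp5 and Gbp2b passed as well (adjusted p = 0.0215 and 0.0189), but in another order. Gbp5 was highest in T221 (2.58) and T2023 (2.32), whereas 10 of the 13 called type II targets had T2023 among their 3 lowest tumours. Gbp2b, also known as Gbp1, was highest in T135 (2.15) and lowest in T920 (-0.24). The 5 Gbp genes on chromosome 3 had pairwise correlations over tumours between -0.36 and 0.90, with a median of 0.15.

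Of the transcriptional regulators 4 of 12 passed, and the median SD of the 12 was 0.56. Irf7 had log2 ratios of -0.13 in T2023, 0.49 in T221, 0.50 in T646, 0.66 in T176, 0.67 in T160, 0.71 in T172, 0.89 in T372, 1.37 in T55, 1.61 in T135, 1.80 in T2134, 2.91 in T284 and 3.46 in T920. Irf7, the factor that amplifies type I interferon production, stood at 3.46 in T920 and 2.91 in T284 and at most 1.80 elsewhere (adjusted p = 0.00366). Irf9 had log2 ratios of -0.50 in T176, 0.85 in T2023, 1.19 in T172, 1.22 in T221, 1.27 in T646, 1.47 in T2134, 1.55 in T372, 1.55 in T55, 1.58 in T135, 1.70 in T160, 2.24 in T284 and 2.26 in T920. Irf9 is the DNA-binding subunit of the type I complex, and its difference rested on T176: the adjusted p was 0.0208 with all tumours and 0.186 without T176. Stat2 had log2 ratios of -0.48 in T176, -0.39 in T172, -0.26 in T2023, -0.04 in T284, 0.15 in T160, 0.55 in T920, 0.65 in T221, 0.65 in T2134, 0.79 in T135, 0.81 in T646, 0.85 in T372 and 1.19 in T55. Stat2, its partner, did not pass (adjusted p = 0.334). Irf1 had log2 ratios of -0.20 in T2023, 1.004 in T160, 1.11 in T920, 1.14 in T221, 1.20 in T172, 1.27 in T135, 1.34 in T2134, 1.45 in T284, 1.65 in T176, 1.76 in T55, 2.07 in T372 and 2.44 in T646. Irf1, the factor induced by interferon gamma through its GAS, missed the threshold at an adjusted p of 0.0615, with T2023 lowest and T646 highest.

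Irf8 had log2 ratios of -0.49 in T2023, -0.12 in T2134, 0.13 in T160, 0.30 in T284, 0.39 in T55, 0.46 in T176, 0.67 in T221, 0.80 in T372, 0.94 in T172, 0.98 in T135, 1.01 in T920 and 2.35 in T646. Irf8, a factor of myeloid and B cells, was highest in T646 (adjusted p = 0.046). In that tumour the leukocyte marker mean lay 1.40 above the 12-tumour mean and 4 of 5 leukocyte markers were highest, and the part of leukocytes in the result was not tested. Irf2bp2 had log2 ratios of -3.03 in T284, -0.93 in T172, -0.33 in T646, -0.26 in T160, -0.24 in T920, -0.24 in T372, -0.24 in T55, -0.04 in T221, 0.01 in T176, 0.02 in T2134, 0.09 in T2023 and 0.12 in T135. Irf2bp2, a corepressor, was set apart by T284 alone, where both arrays were low at -3.46 and -2.60 (adjusted p = 0.00671). The other regulators, Irf2, Irf3, Irf4, Irf5, Irf2bpl and Parp14, had SDs from 0.22 to 0.57 and adjusted p-values from 0.105 to 0.923. The probes of Parp14, an ADP-ribosyltransferase, averaged 1.27 ± 0.84 and 0.38 ± 0.51 (SD, n = 12) and correlated at 0.39 over tumours.

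The tumours at the low end were the same for most of the called genes. Of the 34, 25 had their lowest value in T176 (16) or T2023 (9), and 24 had both among the 3 lowest. At the high end, T920 was highest for 12 genes and among the 3 highest for 23. These were largely type I targets, of which T920 was highest for 11 of 20 and among the 3 highest for 18. For the called type II targets, T372 was highest for 5 of 13 and among the 3 highest for 11. T920 was highest for 1 of those 13. T284 was among the 3 highest for 14 of 20 type I targets and 3 of 13 type II targets. Such counts are not given over all called genes of the array, so these have no background beside them. T176 had the most genes of the whole array called against the other 11 tumours, 417 higher and 227 lower.

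The medians over each class, taken as differences from the gene's mean over 12 tumours, place the tumours by both interferon types. In T920 the type I median was 1.05 and the type II median 0.86, against a median of 0.03 over all genes. In T176 the medians were -0.88 for type I and -1.48 for type II targets, and in T2023 they were -0.77 and -1.39, with all genes at -0.02 and -0.01. Both medians lay on the same side of 0 in 10 of 12 tumours. The exceptions were T160, with 0.13 for type I and -0.42 for type II targets, and T646, with -0.50 and 0.20.

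The type I minus type II difference was largest on the negative side in T372, at -0.95 (type I 0.27, type II 1.22). All 14 type II targets lay above their mean in T372, beside 29 of 36 type I targets and 51.6% of all genes. T646 followed at -0.70, with 10 of 36 type I and 10 of 14 type II targets above their mean, beside 49.1% of all genes. Over 8 ways of computing it, the difference ran from -1.13 to -0.81 in T372 and from -0.80 to -0.66 in T646, and from 0.36 to 0.66 in T160. T176 and T2023 had differences of 0.60 and 0.62, but -0.03 and -0.10 when only called genes were used. The 2 arrays of T172 gave 0.26 and 0.30, and those of T284 gave 0.05 and 0.23. No test is given for these medians, since genes of a class are not replicates.

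**Figure D4:**
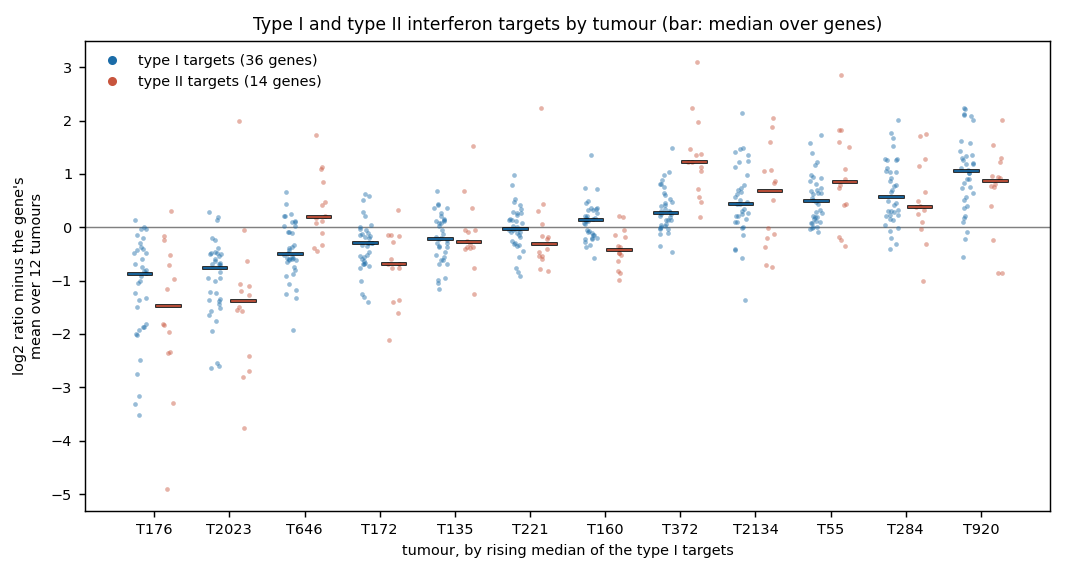
Each point is 1 gene, as the difference of its log2 ratio from its own mean (vertical axis), with the 36 type I targets left and the 14 type II targets right in each tumour, and bars at the medians. T372 and T646 have the type II bar clearly above the type I bar, and T160 has it below, at -0.42 against 0.13 for type I.

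Set singly against the other 11 by limma's moderated test, few tumours stood apart in a single gene. Irf9 was lower in T176, at -0.50 against 0.85 to 2.26 in the other 11 tumours, a difference of -2.03 ± 0.43 (SE, adjusted p = 0.0155). It was the 1 gene of the 56 called lower in T176, where 1.35% of all genes were. Irf2bp2 was lower in T284, at -3.03 against -0.93 to 0.12, a difference of -2.85 ± 0.32 (SE, adjusted p = 0.0112), where 0.0178% of all genes were called lower. In this comparison a lone tumour is assumed to vary like the other 11.

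By the same limma test 0 of 671 gene and tumour pairs were called higher, against 0.252% of the pairs of all genes. At an unadjusted p under 0.05, 24 of the 671 pairs were higher (3.58%, against 3.27% of all pairs) and 27 were lower (4.02%, against 2.38%). T920 supplied 10 of the higher pairs, 17.9% of the group beside 6.69% of all genes, and 9 of these were type I targets. The largest was Rsad2, with 1.61 in T920 and -1.66 to 0.60 in the others (2.43 ± 0.64, SE, adjusted p = 0.158). Irf7 differed by 2.42 ± 0.79 in T920 (SE, adjusted p = 0.247). T176 supplied 16 lower pairs, 28.6% of the group beside 5.89% of all genes. T2023 supplied 9 lower pairs, 16.1% of the group beside 2.16% of all genes. Irf8 in T646 differed by 1.88 ± 0.48 (SE, adjusted p = 0.233).

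The called type I targets moved together. Over 171 pairs of 19 genes the median correlation across tumours was 0.79, as a description, beside 0.02 for pairs of all called genes. Within the 13 called type II targets it was 0.59, and between the classes 0.60. Usp18 and Ifit1 had the highest median correlation with the called type I targets, 0.89 each, and Gbp2 the highest with the called type II targets, 0.88. Xaf1 (0.22), Gbp5 (-0.21 with type I, -0.08 with type II) and Gbp2b (-0.08 and 0.14) stood outside, and so did Irf8 (-0.03 and 0.20). All these pairs share the same arrays.

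Relations between single genes were computed for 6 pairs over the 12 tumours, with permutation tests of 100000 resamples, two-sided and adjusted over the 6. Isg15 and Gbp2, a type I and a type II target, correlated at r = 0.81 (p = 0.00184, adjusted p = 0.011) and rho = 0.85 (p = 0.00096, adjusted p = 0.00576). Without T176 and T920, r was 0.76 with an adjusted p of 0.0688. Irf7 and Isg15 correlated at r = 0.71 (p = 0.00841, adjusted p = 0.0252) and rho = 0.73 (p = 0.0101, adjusted p = 0.0303). Without T284 and T920, r was 0.59 with an adjusted p of 0.146, and without T920 alone it was 0.55 with 0.143. Irf7 with Gbp2 (r = 0.50, p = 0.0976, rho = 0.52, p = 0.09) and Irf1 with Gbp2 (r = 0.53, p = 0.0756, rho = 0.46, p = 0.136) did not pass, with adjusted p-values for r of 0.117 and 0.113. Irf1 with Gbp2 gave r = 0.29 with an adjusted p of 0.417 without T2023 and T646, the tumours farthest from the median of Irf1, and r = 0.76 with an adjusted p of 0.0209 without T176. Ptprc, the common leukocyte antigen CD45, gave r = 0.39 with Isg15 (p = 0.207, rho = 0.37, p = 0.237) and r = 0.55 with Gbp2 (p = 0.0659, rho = 0.49, p = 0.111), with adjusted p-values for r of 0.207 and 0.113.

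Of the rest of the interferon pathway, 29 of 71 measured genes were called by the F-test, against 18.3% of all genes tested. Further interferon targets made up 24 of these 29. The lists of ligands, receptors and upstream sensors, with 1 called gene each, did not exceed the 18.3%. Of the ligands 1 of 6 was called, Ifna5, with an SD of 0.90. It was highest in T2023 (1.18) and lowest in T284 (-1.54), T55 (-1.35) and T920 (-1.35). Its first array of T172 gave -1.48 and its second -0.36. Ifnb1 lay between -0.17 in T172 and 0.59 in T176 (adjusted p = 0.996). Ifng lay between -0.53 in T135 and 1.03 in T372, the tumour with the highest type II median (adjusted p = 0.302). Of the receptors, Ifngr1 alone of 6 passed, at -2.02 in T920 and 1.36 in T221 (adjusted p = 0.00503), while Ifnar1 gave an adjusted p of 0.146. Of the kinases and STATs, 0 of 4 were called by limma's F-test and 1, Jak1, had an unadjusted p under 0.05 (0.0476). Of the inhibitors, Socs3 and Socs1, which block JAK kinases, passed (adjusted p = 0.00936 and 0.0214). Of 8 upstream sensors and adaptors 1 passed, Tlr3, a sensor of double-stranded RNA, at 3.31 in T284 and 0.46 in T176 (adjusted p = 0.0063).

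Of the further interferon targets 24 of 42 were called, against 18.3% of all genes tested. Their mean deviations from the average over tumours were lowest in T176 (-0.80), T2023 (-0.79) and T172 (-0.73), and highest in T920 (0.58). Of the 42, 14 were lowest in T176 and 4 highest there, while 12 were lowest in T2023 and 3 highest. T920 was highest for 13 and lowest for 4. The called Ifitm1 was highest in T176 (0.43) and stood at -2.16 in T920. Tgtp1, also called, was highest in T2023 (0.92) and lowest in T920 (-2.15). The 4 targets of the list with the largest SD were Slfn4, Rtp4, Ifi27l2a and Ifi205. Rtp4 was -1.72 in T176 and 3.88 in T920, and Ifi27l2a was -2.12 in T176 and 3.46 in T284. Ifi205, a sensor of the PYHIN family, was -1.51 in T176 and 2.93 in T221. Slfn4, a gene of myeloid cells, was -0.85 in T172 and 4.69 in T2134. As a list mean of differences from the 12-tumour mean, these targets stood at -0.80 in T176, -0.79 in T2023 and -0.73 in T172, and at 0.58 in T920, 0.56 in T372 and 0.53 in T2134.

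Cell type markers differed between the same tumours, and their called counts stand beside 18.3% of all genes tested. Markers of mammary epithelium (6 of 6 called by the F-test) had their lowest values in T176 for all 6, and their mean difference from the 12-tumour mean was -5.01 there, against -0.43 to 1.46 in the other 11 tumours. Krt8 in T176 was -3.53 and Krt18 -4.25, so the defining keratins of the labelled tissue were far below the reference there. Means of marker lists are differences from the 12-tumour mean throughout, while values of single genes are log2 ratios. Fibroblast and matrix markers (6 of 6 called) had a mean difference of 2.83 in T176, with 4 of 6 highest there. Col3a1, however, had a log2 ratio of -3.30 in T176 against a 12-tumour mean of -2.66. Macrophage markers (6 of 9 called) had a mean difference of -1.22 in T176, with 6 of 9 lowest there. Cd68, however, was highest in T176, with a log2 ratio of 2.81 against a 12-tumour mean of 0.62. T920 had the highest mean of the epithelial markers, 1.46, with 1 of 6 highest there, and T2134 was close at 1.42. In T920 the leukocyte mean was 0.27 and the macrophage mean -0.05. T2023, low for both classes, had the lowest leukocyte mean, -0.80, but 1 of 5 markers was lowest there. In T172 that mean was -0.63, with 3 of 5 lowest. T2023 also had the highest mean of basal and squamous markers, 2.77, with 2 of 5 highest there. That mean was 2.39 in T221, 2.34 in T135 and 2.17 in T372, the tumour with the highest type II median.

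T646, low for type I but not for type II targets, had the highest mean of leukocyte (1.40), macrophage (1.20), T and NK cell (1.06) and B cell (0.98) markers, with 4 of 5, 5 of 9, 7 of 10 and 3 of 4 markers highest there. T372, highest for type II targets, had means of 0.31, 0.53, 0.58 and 0.95 for the same lists. Both interferon classes were above average in T2134, T284, T372, T55 and T920. The leukocyte means there were -0.67, -0.38, 0.31, 0.10 and 0.27, in that order. Dendritic cell markers, which include Bst2 of the interferon group itself, had their highest mean in T135 (0.65), with 1 of 8 markers highest there. Their mean was 0.60 in T2023, with 4 of 8 highest there. Of the 8, 3 were called by the F-test, Ly6d, Tcf4 and Bst2. Ly6d had the largest SD of the list, 2.38. It stood at 3.605 in T2023 and 2.996 in T135, against a 12-tumour mean of 0.15. This gene thus weighs heavily in both list means, which were not computed without it. Endothelial markers had their highest mean in T221 (0.78), with 2 of 5 highest there. Two-colour ratios give no signal level, so no marker can be called absent. The part of cell composition in the interferon differences was not tested.

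**Figure D5:**
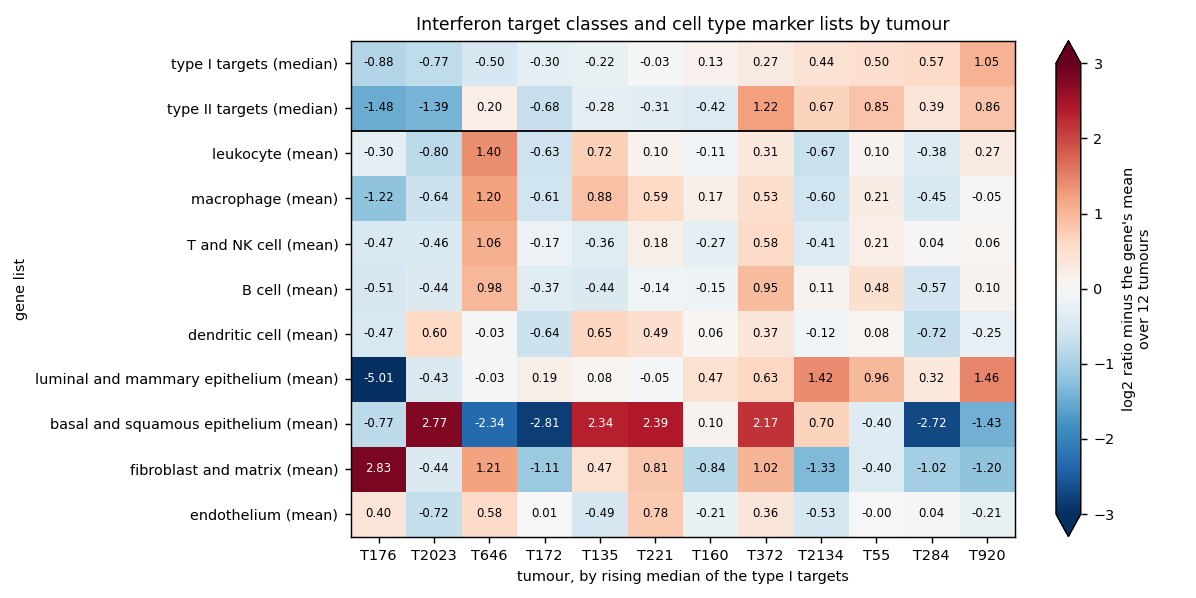
Values per tumour of the type I and type II medians (top 2 rows) and of the mean of each marker list (lower 9 rows), as differences of log2 ratios from each gene's mean, with tumours in rising order of the type I median. The 4 rows of leukocyte, macrophage, T and NK cell and B cell markers are highest in T646, not in T920, where the type I median is highest.

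The 2 arrays of T172 and of T284 show how far repeat arrays differed. Over the 56 genes the median size of the difference between them was 0.38 in T172 and 0.37 in T284, against 0.31 and 0.34 over all genes. In T172 the second array was lower for most of the group, with a median difference of -0.23 and 17 of 56 genes higher, while all genes had a median of -0.03. In T284 the median difference was 0.08, with 34 of 56 genes higher. Relative to the common reference, 48 of the 56 genes had a mean above 0, against 8620 of the 16877 genes tested. Of the 56, 10 (17.9%) were above the reference in all tumours with a value, against 9.48% of all genes. Ifit1bl2 was the 1 gene of the 56 (1.79%) below it in all 12, against 14.8% of all genes below it wherever they had a value. Its mean was -0.57 ± 0.19 (SD, n = 12).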

How the data were processed

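The deposited table gives 1 value per probe and array. Per the labels, RNA was isolated with the Qiagen RNeasy kit and labelled with Cy5 (tumour) or Cy3 (reference). The authors' values were taken as log2 ratios of tumour to reference: the range, -9.19 to 7.42, fits base 2, the direction follows the dyes, and both are inferred. Array medians near 0 show centring per array. Scanner, background correction and normalization are stated in none of the sources used here. Over all probes, pairs of arrays correlated at 0.465 to 0.898, and 0.172% of values were missing.

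Probes were named from the platform annotation, with symbols updated through RefSeq (GRCm38.p6): of 22575 probes, 18658 had 1 symbol, 30 several and 3887 none, and 189 kept their old symbol. Probes of a gene were averaged. Genes needed values on at least 12 arrays and a complete pair for T172 or T284, as 16877 of 16879 had.

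In limma 3.58.1 (R 4.3.3), all 14 arrays were fitted with 12 tumour levels and a moderated F-test (prior SD 0.313), adjusted after Benjamini-Hochberg over all genes. Each tumour was then set against the other 11, after averaging repeat arrays. Calls required an adjusted p under 0.05. The number of arrays limits the precision. The scripts were tested on simulated data. Other steps used Python 3.11.15, numpy 2.4.6, pandas 2.3.3, scipy 1.17.1 and matplotlib 3.10.9.

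The members, roles, classes, pathway and marker lists were chosen with earlier results of these data known. Named with all 12 values are up to 4 called genes of each role with the largest SD, and Irf1, Irf7, Irf9 and Stat2. Also named are every called gene of a single-tumour comparison, up to 4 called genes of each pathway list, and Ifnb1, Ifng, Ifnar1 and Ifngr1. Others were named after their values were seen. Of 8 planned relations, 2 were not run and are not reported here. Alternatives were probe choice, quantile normalization, missing values, the variance prior, single arrays, a block for first and second arrays, tumours left out, stricter classes and a stricter threshold.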

Additional observations from a re-analysis of the deposited data

How the results depend on the processing

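The count of genes that differed between tumours was 34 of 56 in the main setting and 31 to 38 under the alternatives, apart from the block and the stricter threshold. Leaving out 1 array of T172 or T284 gave 34 to 38 genes of the group, 20 to 23 type I targets and 13 to 14 type II targets. The settings with 38 genes left out an array of T172 and also called more of all genes, 4005 and 3895, against 3094 in the main setting. Leaving out an array of T284 called 34 and 36 genes of the group, with 3199 and 3254 of all genes. At an adjusted p under 0.01 the counts were 19 of 56, with 12 type I and 6 type II targets, while 1578 of all genes passed. With first or second array as a replicate block, 47 genes of the group and 7124 of all genes were called, against 3094 without it. No replicate numbers in the labels pair the arrays, and second minus first correlated at 0.33 between T172 and T284 over all genes. Quantile normalization called 37 of 56, with 24.1% of all genes, and 31 of the 34 kept the call without T176, with 14.9% of all genes called. Of the 34 called genes, 27 kept the call in all 12 settings run. Dhx58, Ifit2, Ifit3, Irf8, Irf9, Oas1c and Rsad2 lost it in 1 setting or more, with highest adjusted p-values of 0.0504 to 0.186; Ifit3, Irf9 and Oas1c did so without T176, and Ifit2 and Rsad2 without T920. Of the genes not called, 13 gained a call in 1 setting or more, each of them with the block: Oas1g in 7 of 12 settings, Irf1 and Eif2ak2 in 5, Isg20 in 3, Ddx58, Parp14, Stat2 and Trim25 in 2, and Adar, Ifi35, Irf2bpl, Irf5 and Oas3 in 1. In single-tumour comparisons, leaving out T176 left 1 gene called lower in place of 2, since T176 itself was then not compared, and 0 were called higher in the 9 settings. Irf7 with Isg15 gave r = 0.59 without T284 and T920 and 0.55 without T920, Isg15 with Gbp2 gave 0.76 without T176 and T920, and Irf1 with Gbp2 gave 0.29 without T2023 and T646 and 0.76 without T176, where its adjusted p passed; the cause was not tested. Type I and type II medians shared a sign in 10 tumours in all 8 settings, with T176 lowest for both classes and T920 highest for type I. The highest type II median was in T372, or in T55 after quantile normalization. The type I minus type II difference changed sign among settings in T135, T176 and T2023, and in T176 and T2023 only when genes not called were dropped, an alternative added after the data were seen, as was leaving T920 out of the single-tumour comparisons. Without signal levels, dim probes cannot be told from bright ones, and 2 repeated tumours give the whole estimate of array error.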

Other observations

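Ifit1 and Ifit1bl2 point away from each other on chromosome 19: a promoter window of Ifit1bl2 overlaps that of Ifit1 over 245 of 300 bases on opposite strands. Another window of Ifit1bl2, chr19:34629762-34630061, lay apart and held neither motif. The log2 ratios of these genes differed in spread, with SDs of 1.63 for Ifit1 and 0.19 for Ifit1bl2 over the 12 tumours. They correlated at -0.04.

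Smarca4, the gene that is heterozygous in all these animals, lay between -1.08 in T284 and 0.08 in T176, and did not pass the F-test between tumours (adjusted p = 0.359). T176, where it was highest, was the tumour with the lowest type I and type II medians. In T2023, with the next lowest medians of both classes, Smarca4 was -0.87. A relation of Smarca4 with the interferon genes was not tested.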
